A study of Mus musculus with 4 samples.

Results

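The enzymes of glycolysis and the genes of the hypoxia response form a set of 32 genes, out of 21864 protein-coding genes in the annotation. They were taken as a list of names, drawn up with earlier results of these data known, and all 32 were found in the annotation. Of these, 22 belong to glycolysis, its control or the fate of pyruvate and lactate, 1 codes for a glucose transporter, and 9 code for the hypoxia-inducible factor (HIF), its degradation and its targets. Each gene was asked for RNA polymerase II (Pol II) peaks within 1500 bp of a start of its protein-coding transcripts (a promoter peak) and in the rest of the gene (a body peak).

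Pol II chromatin immunoprecipitation followed by sequencing was carried out on flow-sorted brain endothelial cells (ECs) in 4 libraries of C57BL/6J mice. The 2 old WT Cre libraries came from mice aged 20 to 23 months that carried the CDH5-CreERT2 transgene, a tamoxifen-induced recombinase driven by the endothelial cadherin 5 promoter. The 2 young EC-K4KO libraries came from mice aged 4 to 6 months with the same transgene and a Klf4-flox allele, so that EC KLF4, a zinc-finger transcription factor, was deleted. Both groups received tamoxifen at 8 weeks. Genotype and age changed together between the groups and cannot be told apart here. The study's methods call the libraries of a group biological replicates, without saying how many animals gave each.

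The libraries held 22705175 to 65734178 fragments, and their peak lists differed more than their depth. Young EC-K4KO replicate 2 had the fewest fragments and 235591 peaks, while the others had 35638 to 78851. Counts are therefore given beside the same count over all genes, and again on lists cut to the 35638 peaks with the smallest q of each library. Only called peaks are listed (q of at most 0.01, no control library), so a gene without a peak is one without a call. Klf4 had a promoter peak in both young libraries (fold enrichment 4.20 and 4.17) and in neither old library, a pattern shared by 3.13% of all genes. It also had body peaks, 1 in old WT Cre replicate 1 (3.12-fold) and 2 in young EC-K4KO replicate 2 (up to 5.67-fold). Peaks at the gene do not test the deletion. Where 4 values stand in a row they are in library order, the pair of old libraries (replicate 1, then 2) before the young pair (replicate 1, then 2). Over all genes, 25.6%, 24.5%, 10.7% and 67.5% had a promoter peak and 47.1%, 33.2%, 26.1% and 69.7% a body peak. Among 10 endothelial markers, 9, 6, 6 and 8 had a body peak and 3, 4, 0 and 5 a promoter peak. Of 6 neuron markers, 4, 4, 3 and 6 had a body peak and 0, 1, 1 and 4 a promoter peak. Promoter peaks were called at 2, 1, 0 and 3 of 5 astrocyte markers, 2, 0, 0 and 3 of 5 microglia markers, 0, 1, 0 and 4 of 5 oligodendrocyte markers, and 1, 1, 1 and 3 of 5 mural markers. Body peaks were called at 4, 2, 3 and 5 astrocyte, 2, 1, 2 and 3 microglia, 2, 3, 0 and 4 oligodendrocyte and 2, 2, 1 and 4 mural markers. Pecam1, Cdh5, Tek, Flt1 and Erg (endothelial), Syt1 and Rbfox3 (neuronal), Slc1a2 and Aldh1l1 (astrocytic), Cx3cr1 (microglial) and Notch3 (mural) had body peaks in all 4 libraries, so calls were not limited to endothelial genes. On equal lists, 7, 6, 6 and 3 endothelial and 3, 4, 3 and 5 neuron markers had a body peak, and 1, 4, 0 and 2 endothelial and 0, 1, 1 and 3 neuron markers a promoter peak. Body peaks were then at 3, 2, 3 and 3 astrocyte, 2, 1, 2 and 1 microglia, 2, 3, 0 and 1 oligodendrocyte and 2, 2, 1 and 0 mural markers. Promoter peaks on these lists were at 0, 1, 0 and 2 astrocyte and 1, 0, 0 and 0 microglia markers. They were at 0, 1, 0 and 2 oligodendrocyte and 0, 1, 1 and 0 mural markers. All genes on these lists stood at 11.8%, 22.6%, 10.7% and 27.7% (promoter) and 30.9%, 31.2%, 26.1% and 30.1% (body). The part of other cell types in the results was not tested.

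Glycolysis splits glucose into pyruvate, which is either reduced to lactate or carried into mitochondria through pyruvate dehydrogenase. ECs are known to draw much of their energy from it even when oxygen is present. When oxygen falls, the prolyl hydroxylases (Egln genes) no longer mark the HIF alpha subunits for the VHL ubiquitin ligase, and the stabilised subunits pair with ARNT and bind a short core sequence at many glycolytic genes. Pol II often pauses just downstream of the start before it moves into the gene body, which is why the start and the body are counted apart.

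Promoter sequences of some members named below are shown first. Each is printed 5′ to 3′ on the strand of its gene, and capitals mark the HIF core (ACGTG or GCGTG, either strand). For Ldhb and Vhl, the stretch is the one shared by the promoter peaks of 3 libraries, read from GRCm38.p6. For Pfkp, Hif1a and Ankrd37, and for Gapdh and Pgk1, which had no peak in any library, the bases lie before the start in the RefSeq promoter table of GRCm38.p6.
Ldhb, chr6:142507391-142507526, minus strand, intron: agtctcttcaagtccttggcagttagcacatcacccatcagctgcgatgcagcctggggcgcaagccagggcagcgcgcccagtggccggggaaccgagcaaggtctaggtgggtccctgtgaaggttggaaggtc
Vhl, chr6:113624240-113624454, plus strand, first exon into intron: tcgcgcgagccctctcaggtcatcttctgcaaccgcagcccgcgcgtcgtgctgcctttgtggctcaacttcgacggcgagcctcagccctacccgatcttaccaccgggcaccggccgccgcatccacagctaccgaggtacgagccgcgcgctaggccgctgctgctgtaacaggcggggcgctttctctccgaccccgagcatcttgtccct
Pfkp, chr13:6648778-6648897, minus strand: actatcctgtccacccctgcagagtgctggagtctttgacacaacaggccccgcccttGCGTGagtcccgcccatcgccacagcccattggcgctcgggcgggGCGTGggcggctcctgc
Hif1a, chr12:73907747-73907866, plus strand: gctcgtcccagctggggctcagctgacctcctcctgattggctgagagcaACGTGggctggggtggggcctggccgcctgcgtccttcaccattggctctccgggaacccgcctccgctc
Ankrd37, chr8:45999868-45999987, minus strand: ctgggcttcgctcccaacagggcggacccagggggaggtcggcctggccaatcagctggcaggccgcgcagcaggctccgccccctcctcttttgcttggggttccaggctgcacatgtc
Gapdh, chr6:125165774-125165893, minus strand: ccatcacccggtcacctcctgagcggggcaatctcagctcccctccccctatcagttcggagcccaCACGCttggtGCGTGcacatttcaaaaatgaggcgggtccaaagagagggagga
Pgk1, chrX:106186980-106187099, plus strand: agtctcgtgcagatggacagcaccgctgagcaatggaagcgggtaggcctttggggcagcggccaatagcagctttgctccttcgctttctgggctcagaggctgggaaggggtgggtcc

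The Pfkp stretch lay whole within a peak of old WT Cre replicate 2 and one of young EC-K4KO replicate 2, and held 2 cores. The Hif1a stretch lay partly within a peak of young EC-K4KO replicate 2 and in no peak of the other libraries, and held 1 core. The Ankrd37 stretch lay within the peaks of both young libraries and held none, but its whole 300-base promoter in the table held 4. The Gapdh stretch held 2 cores and its whole promoter 3. The Pgk1 stretch held none and its whole promoter 2. The core was thus present in the promoters of both members without any peak. Across the RefSeq table, which covers 250 bases before to 50 after each start and matched 30 members with 44 promoters, 35 member promoters (79.5%) held the core, against 14380 of 32851 (43.8%) in all. Member promoters were also richer in CG dinucleotides, with a median of 20 against 7. Among promoters with at least 15 of them, the core was in 83.3% of member promoters and 71.4% of all. The KLF motif GGGNGNGGC was found in 54.5% of member promoters against 25.8% of all, and the GC box GGGCGG, which the KLF motif can overlap, in 56.8% against 35.7%. The ETS motif CCGGAAG (2.27% against 8.86%) and TATAAA (4.55% against 13.6%) were scarcer. The KLF, GC box, ETS and TATAAA shares were not read again among CG-rich promoters, so the part of base composition in them was not tested. Some members have several overlapping promoters, which were counted apart. All motifs were searched on both strands, and a match is a description of letters and not of binding.

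Promoter peaks were called at 12 of the 32 genes in old WT Cre replicate 1 (37.5%, exact 95% interval 21.1 to 56.3), where 25.6% of all genes had one. They were called at 10 in old WT Cre replicate 2 (31.2%, 16.1 to 50), against 24.5% of all genes. Young EC-K4KO replicate 1 had 4 (12.5%, 3.51 to 29.0), against 10.7%. Young EC-K4KO replicate 2 had 26 (81.2%, 63.6 to 92.8), against 67.5%. Protein-coding genes of like length (the 200 nearest in length to each member) gave 25.0%, 24.3%, 10.6% and 68.3%. The members were above both references in every library, but each interval included them, so on all peaks the excess was not beyond counting error in any library. These intervals, and those below, cover counting error only.

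**Figure D1:**
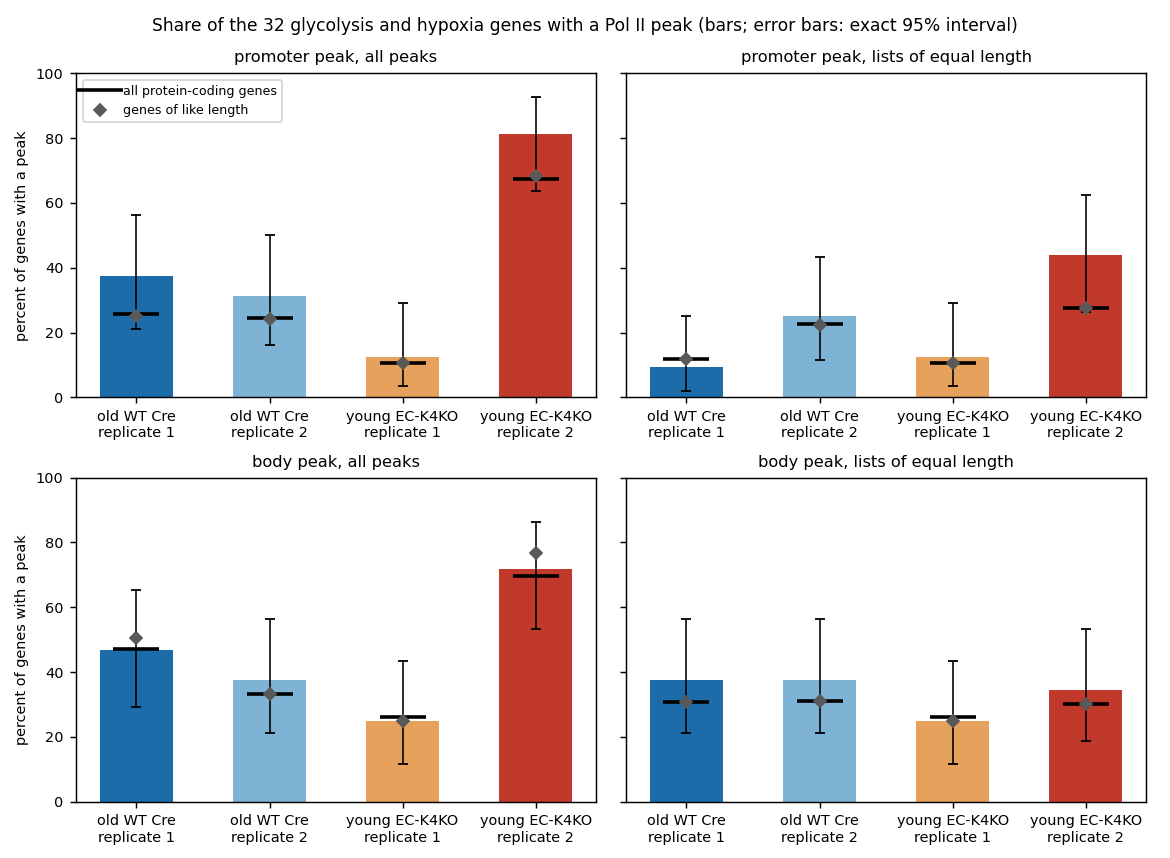
Percent of the 32 members with a promoter peak (top) or body peak (bottom) in each library, for all deposited peaks (left) and for lists cut to 35638 peaks (right). Bars are the members with exact 95% intervals, black lines all protein-coding genes and diamonds genes of like length. The bars track the references across libraries, from 12.5% in young EC-K4KO replicate 1 to 81.2% in young EC-K4KO replicate 2 for promoters on all peaks.

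On lists of equal length the promoter counts were 3, 8, 4 and 14 in the same order. All genes then stood at 11.8%, 22.6%, 10.7% and 27.7%. Old WT Cre replicate 1 fell from above to below the share of all genes (9.38%), while young EC-K4KO replicate 2 kept 43.8% (26.4 to 62.3). In old WT Cre replicate 1, neither the excess on all peaks nor the shortfall on equal lists was beyond counting error. With q of at most 1e-05 the counts were 5, 5, 2 and 25, against 15.1%, 13.4%, 3.36% and 57.2% of all genes. The interval for young EC-K4KO replicate 2 (78.1%, 60 to 90.7) then lay above the share of all genes and that of genes of like length (57.8%), and those of the other libraries included the share of all genes. With a fold enrichment of at least 4 (75.0%, 56.6 to 88.5, against 59.2%) and on equal lists, the interval for that library included the share of all genes.

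The group means differed by less than the young libraries differed from each other. Promoter peaks were at 34.4% ± 4.42 (SD, n = 2) of members in the old group and 46.9% ± 48.6 (SD, n = 2) in the young group, a difference of 12.5 percentage points. All genes differed by 14.1 points. On equal lists the members differed by 10.9 points (17.2% ± 11 against 28.1% ± 22.1, SD, n = 2) and all genes by 1.98, again with a spread within the groups as large as the difference. Without young EC-K4KO replicate 2 the difference was -21.9 points. Over all genes too, the remaining young library (10.7%) then stood below the old mean (25.0%). Two-sided exact permutation of 2 against 2 libraries cannot give a p below 0.333, and no test was made on the list.

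In both old WT Cre libraries a promoter peak was called at 4 members (12.5%), against 10.1% of all genes, and in both young EC-K4KO libraries also at 4 (12.5%), against 9.15%. The old set was Pfkp, Pfkfb3, Hif1a and Vhl, and the young set was Hk1, Ldhb, Pdk4 and Ankrd37. On equal lists 2 remained in each group, Pfkp and Pfkfb3 in the old one (4.74% of all genes) and Pdk4 and Ankrd37 in the young one (5.24%). No member had a promoter peak in both old libraries and neither young one, where 0.787% of all genes did. In the other direction there were 3 members, Hk1, Pdk4 and Ankrd37 (9.38%, 1.98 to 25.0), against 3.13% of all genes. Ankrd37 had both young calls under every alternative of peaks and windows run, whereas Hk1 was down to 1 library with q of at most 1e-05, with a fold enrichment of at least 4, on equal lists and with the 5′-most start alone, and Pdk4 with q of at most 1e-05. No member had a promoter peak in all 4 libraries (2.22% of all genes), and 5 had none in any (15.6%, against 25.4%). The 5 were Gapdh, Pgk1, Eno2, Pfkfb4 and Egln3.

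**Figure D2:**
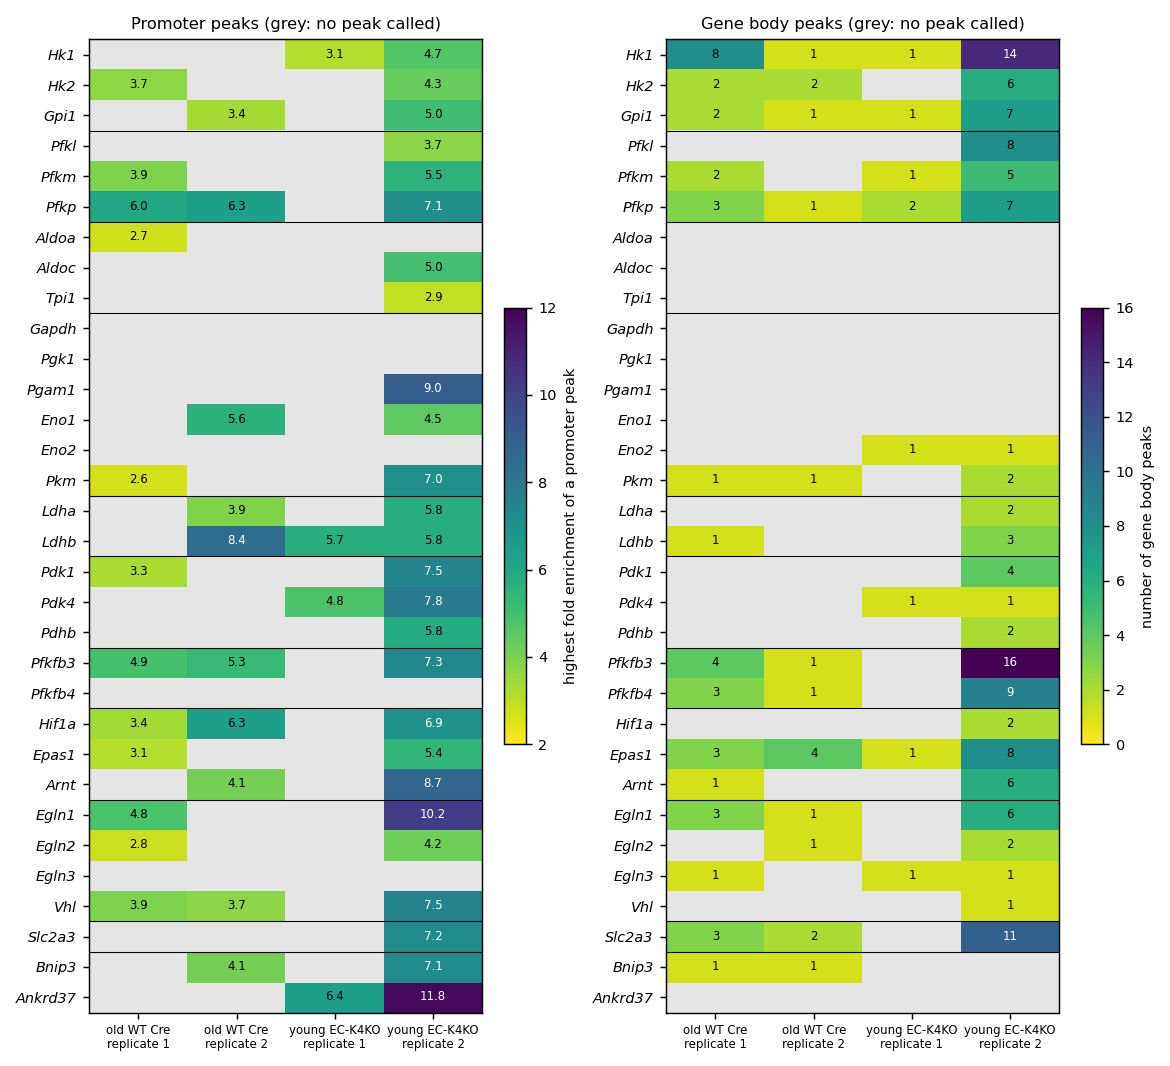
Highest fold enrichment of a promoter peak (left) and number of body peaks (right) for each member and library, with grey where no peak was called and lines between functional groups. The young EC-K4KO replicate 1 column of the left panel holds 4 coloured cells, Hk1, Ldhb, Pdk4 and Ankrd37, and the rows from Aldoa to Eno1 are grey throughout the right panel.

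Of the 3 genes of the first steps of glycolysis, 1, 1, 1 and 3 had a promoter peak and 3, 3, 2 and 3 a body peak. Over all genes, too, body peaks were the more frequent kind in every library, as given below. Hexokinases phosphorylate glucose on entry. Hk1 had promoter peaks in both young libraries, at 3.13-fold in replicate 1 and 4.66-fold in replicate 2, and in neither old one. These did not overlap: the first lay 145 bp downstream of an internal start, and the strongest of the second 350 bp downstream of another. Hk1 is the longest member (111054 bp) and had 8, 1, 1 and 14 body peaks in library order. Hk2 had a promoter peak at 3.68-fold in old WT Cre replicate 1 and 4.34-fold in young EC-K4KO replicate 2. Gpi1, the glucose phosphate isomerase, had one at 3.35-fold in old WT Cre replicate 2 and 5.05-fold in young EC-K4KO replicate 2, with body peaks in all 4 libraries.

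The phosphofructokinases catalyse the committed step, and their 3 genes differed. Pfkp had promoter peaks in 3 libraries, at 6.01-fold and 6.34-fold in the old WT Cre replicates and 7.07-fold in young EC-K4KO replicate 2, and none in young EC-K4KO replicate 1. In old WT Cre replicate 1 its peak stood at the 95.8th percentile of all peaks of that library. Its body had 3, 1, 2 and 7 peaks, but the one in old WT Cre replicate 2 crossed the window's border and had its summit 1442 bp from the start. Pfkm had promoter peaks at 3.94-fold in old WT Cre replicate 1 and 5.53-fold in young EC-K4KO replicate 2, and a start of Senp1 lay 607 bp from one of its own. Pfkl had 1 promoter peak, at 3.73-fold in young EC-K4KO replicate 2.

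Of the 9 genes of the middle and lower steps, 2, 1, 0 and 5 had a promoter peak and 1, 1, 1 and 2 a body peak, beside 25.6%, 24.5%, 10.7% and 67.5% (promoter) and 47.1%, 33.2%, 26.1% and 69.7% (body) of all genes. Most of these genes are short, and the part of length in their few body calls was not tested. Gapdh and Pgk1, the dehydrogenase and kinase that follow the aldolase step, had no peak of either kind in any library. Aldoa had a single promoter peak, 2.72-fold in old WT Cre replicate 1 with its summit 701 bp upstream, and Fam57b starts 1473 bp from one of its starts. Aldoc (4.96-fold) and Tpi1 (2.93-fold) had theirs in young EC-K4KO replicate 2 alone, where most genes had a call. In that library too, Pgam1, the phosphoglycerate mutase, reached 8.98-fold, the 96.9th percentile of its peaks. Eno1 had peaks 36 and 12 bp downstream of a start in old WT Cre replicate 2 (5.59-fold) and young EC-K4KO replicate 2, and Pkm, the last enzyme, had 2.63-fold in old WT Cre replicate 1 and 6.98-fold in young EC-K4KO replicate 2. Pkm (23008 bp) also had 1, 1, 0 and 2 body peaks. Several of these genes are known to have processed pseudogenes in the mouse genome, and how reads mapping to several places were treated in these libraries is not given in the sources used here.

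Lactate dehydrogenase subunits convert pyruvate and lactate. Ldhb had promoter peaks at 8.41-fold in old WT Cre replicate 2, 5.68-fold in young EC-K4KO replicate 1 and 5.77-fold in young EC-K4KO replicate 2, and none in old WT Cre replicate 1. Those summits lay 509, 502 and 465 bp downstream of the start, in an intron, and the peaks shared the 136 bases printed above. Old WT Cre replicate 2 had a further peak, 6.68-fold, with its summit 48 bp downstream of the start, in an untranslated exon part. On equal lists Ldhb was called in 2 libraries, without young EC-K4KO replicate 2. No other member had overlapping promoter peaks in both young libraries and an old one. Ldha had 3.88-fold and 5.76-fold in old WT Cre replicate 2 and young EC-K4KO replicate 2.

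Pdk4 and Pdk1 code for kinases that inhibit pyruvate dehydrogenase, and Pdhb for one of its subunits. Pdk4 had a promoter peak and a body peak in each young library and neither in the old ones. Its promoter peaks were 4.78-fold in young EC-K4KO replicate 1, with the summit 262 bp downstream, and 7.84-fold in replicate 2, with the summit 302 bp upstream, and they did not overlap. Its body peaks, 4.46-fold and 6.09-fold, lay 4475 and 2906 bp from the start. Pdk1 had 3.26-fold in old WT Cre replicate 1 and 7.49-fold in young EC-K4KO replicate 2, and Pdhb 5.85-fold in the latter only.

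Pfkfb3 and Pfkfb4 make and break fructose 2,6-bisphosphate, the activator of phosphofructokinase. Pfkfb3 had promoter peaks at 4.92-fold and 5.28-fold in the old WT Cre replicates and 7.33-fold in young EC-K4KO replicate 2, with none in young EC-K4KO replicate 1. The old peaks lay at internal starts, with summits 50722 to 52161 bp from the 5′ end of the gene, and only young EC-K4KO replicate 2 also had peaks at the 5′ end itself. Pfkfb4 had no promoter peak but 3, 1, 0 and 9 body peaks.

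**Figure D3:**
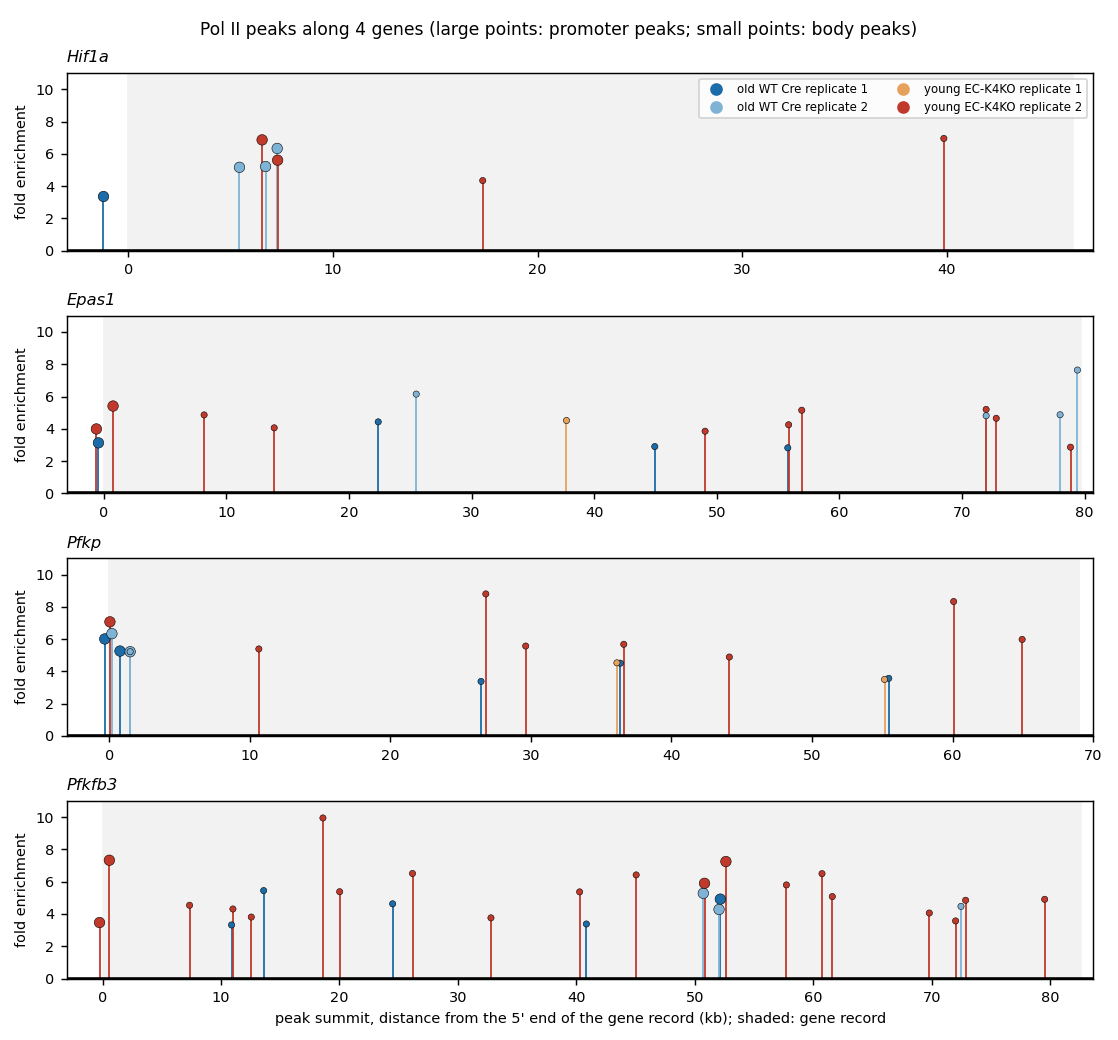
Peaks along Hif1a, Epas1, Pfkp and Pfkfb3, by the distance of the summit from the 5′ end of the gene record (kb) and fold enrichment. Large points are promoter peaks, small points body peaks, and colours the libraries. The promoter peaks of both old libraries in Pfkfb3 stand between 50722 and 52161 bp, and Epas1 has body peaks of all 4 colours.

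The HIF subunits had promoter peaks in 2 or 3 libraries each, as did 25.2% (2 libraries) and 10.9% (3 libraries) of all genes. Hif1a, the alpha subunit found in most cells, had promoter peaks at 3.38-fold in old WT Cre replicate 1, 6.34-fold in old WT Cre replicate 2 and 6.87-fold in young EC-K4KO replicate 2. The first lay 1250 bp upstream of the 5′ start, and the others around the second start (summits 5430 to 7294 bp from the 5′ end), so the pair of old libraries shared a call but not a place. Epas1, which codes for HIF-2 alpha and is known for its high expression in ECs, had 3.13-fold in old WT Cre replicate 1 (435 bp upstream) and 5.41-fold in young EC-K4KO replicate 2 (758 bp downstream). It had 3, 4, 1 and 8 body peaks, up to 7.64-fold in old WT Cre replicate 2 at its 3′ end. Arnt, the shared partner, had peaks 59 and 62 bp downstream of a start in old WT Cre replicate 2 (4.10-fold) and young EC-K4KO replicate 2 (8.71-fold). None of the 3 subunits had a promoter peak in young EC-K4KO replicate 1. On equal lists Hif1a and Arnt had a promoter peak in 2 libraries each and Epas1 in none.

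Among the genes that lead HIF to degradation, Vhl, the substrate receptor of the ligase, had promoter peaks at 3.94-fold and 3.73-fold in the old WT Cre replicates and 7.51-fold in young EC-K4KO replicate 2, and none in young EC-K4KO replicate 1. Those peaks shared 215 bases from the first coding exon into the intron, printed above, with summits 232, 333 and 477 bp downstream of the start. Vhl was called in 1 library on equal lists and with a fold enrichment of at least 4, and in 2 with q of at most 1e-05. Egln1, the main oxygen-sensing hydroxylase, had 4.82-fold in old WT Cre replicate 1 and 10.2-fold in young EC-K4KO replicate 2. Egln2 had 2.81-fold and 4.20-fold in the same libraries. Egln3, itself a known HIF target, had no promoter peak and a body peak in 3 libraries.

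Of the other members, Ankrd37, a small HIF target, had the highest promoter fold enrichment of the set. It had 6.37-fold in young EC-K4KO replicate 1 (pileup 19 fragments, 96.7th percentile) and 11.8-fold in young EC-K4KO replicate 2 (pileup 28 fragments, 99.6th percentile), and no peak in either old library. The summits lay 53 and 144 bp upstream of its coding start, and the peaks overlapped. A start of Lrp2bp lies 559 bp away, so these peaks cannot be given to one of the genes. Bnip3, a mitophagy receptor and HIF target, had promoter peaks at 4.10-fold in old WT Cre replicate 2 and 7.13-fold in young EC-K4KO replicate 2. Slc2a3, a glucose transporter best known from neurons, had 7.16-fold in young EC-K4KO replicate 2 and 16 body peaks over the libraries, of which 15 lay in its gene record but outside its coding transcripts.

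**Figure D4:**
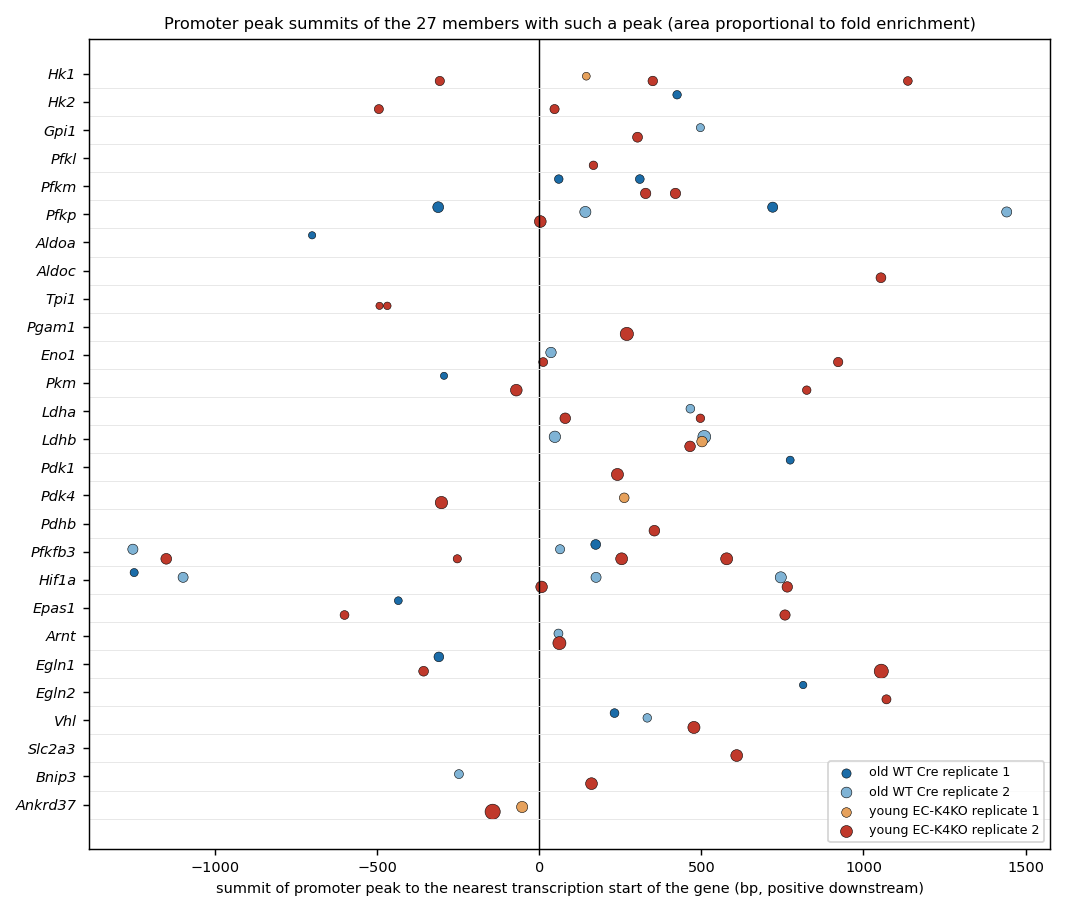
Distance from each promoter peak summit to the nearest start of its gene (bp, positive downstream) for the 27 members with a promoter peak, coloured by library, with the point area proportional to fold enrichment. Ldhb has points of 3 libraries together at 465 to 509 bp and a further one of old WT Cre replicate 2 at 48 bp, whereas those of Pdk4 lie on opposite sides of the start.

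At the members, more summits fell downstream of the start than upstream. Of 14, 15, 4 and 40 promoter peaks at members in library order, 8, 12, 3 and 29 had their summit downstream and 9, 10, 3 and 28 lay within 500 bp of a start. These positions were not counted over all genes, so they are not read as a trait of the members. Median fold enrichments were 3.72, 5.22, 5.23 and 5.51, beside 3.88, 4.85, 4.14 and 5.22 over the promoter peaks of all genes. Of the members with a promoter peak in 2 libraries, overlapping peaks were found for 3 of 4 between the old WT Cre replicates (Pfkp, Pfkfb3 and Vhl), where 60.4% of all such genes overlapped. Between the young EC-K4KO replicates they were found for 2 of 4 (Ldhb and Ankrd37, against 66.6%). Across groups, old WT Cre replicate 2 and young EC-K4KO replicate 2 had overlapping peaks at 9 of 10 members, against 74.6%, and old WT Cre replicate 1 and young EC-K4KO replicate 2 at 7 of 11, against 64.5%. With young EC-K4KO replicate 1, old WT Cre replicate 1 shared no member and old WT Cre replicate 2 shared Ldhb alone, where the peaks overlapped. Of all 21864 genes, 968 and 982 had a promoter peak in both libraries of these pairs, and 51.8% and 54.6% of those overlapped.

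Body peaks were called at 15, 12, 8 and 23 members (46.9%, 37.5%, 25.0% and 71.9%) in library order. All genes stood at 47.1%, 33.2%, 26.1% and 69.7%, and genes of like length at 50.5%, 33.3%, 24.8% and 76.6%. The members did not stand apart from either. Both old WT Cre libraries had a body peak at 11 members, against 27% of all genes, and both young EC-K4KO libraries at 8, against 24.9%. Hk1, Gpi1, Pfkp and Epas1 had one in all 4 libraries, against 15.9% of all genes, with Pfkp counted through the border peak. Another 8 members (25.0%, 11.5 to 43.4) had none in any, against 25.9% of all genes and 18.3% of genes of like length. The 8 were short, with a median length of 6128 bp (3711 to 16600), whereas the 12 members with a body peak in 3 or 4 libraries had a median of 45084 bp (23008 to 111054).

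On lists of equal length, body peaks were at 12, 12, 8 and 11 members, against 30.9%, 31.2%, 26.1% and 30.1% of all genes. Both old libraries then shared 10 members (31.2%, 16.1 to 50), against 19.6%, and both young ones 4, against 15.8%. Group means were 42.2% ± 6.63 (SD, n = 2) in the old group and 48.4% ± 33.1 (SD, n = 2) in the young group on all peaks, and 37.5% and 29.7% on equal lists, so the direction turned with the list. The difference over all genes turned as well, from 7.73 to -2.93 points.

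Body peaks that followed the groups were few. Bnip3 was the one member with a body peak in both old libraries and neither young one (0.48% of all genes). Its peaks, 6.39-fold and 6.34-fold, overlapped and had summits 9833 and 9862 bp from the 5′ end, in an intron. Pdk4 and Eno2 had body peaks in both young libraries and neither old one (2.63% of all genes). Those of Eno2, the neuronal enolase, overlapped in a coding exon at 3.22-fold and 4.0-fold. Eno2 was down to 1 library with q of at most 1e-05, with a fold enrichment of at least 4 and on equal lists, and Pdk4 with q of at most 1e-05 and on equal lists. Of 188 member body peaks in all, 139 had their summit in an intron, 33 in an exon and 16 outside the coding transcripts.

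A promoter peak and a body peak together were found at 7, 4, 2 and 20 members, against 15.3%, 10.9%, 4% and 51.9% of all genes.

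Promoter peaks at related genes outside the list are read beside the 25.6%, 24.5%, 10.7% and 67.5% of all genes given above. Of 12 genes for glucose and lactate transport, the pyruvate step and further control of glycolysis (Pfkfb1, Pfkfb2 and Bpgm), 5, 7, 2 and 9 had a promoter peak in library order. Pfkfb2, a further phosphofructokinase regulator, had one in all 4 libraries, at 3.19-fold, 6.33-fold, 3.82-fold and 5.73-fold. Slc16a1, the lactate transporter MCT1, had 3.94-fold and 5.22-fold in the old WT Cre replicates and 7.07-fold in young EC-K4KO replicate 2. Of 8 HIF partners and regulators, 2, 2, 1 and 6 had a promoter peak, and Cited2, which competes with HIF for its coactivator, had one in all 4, at 3.57-fold, 5.38-fold, 4.40-fold and 6.66-fold. Of 14 further hypoxia targets, 6, 4, 2 and 13 had one. P4ha1, a collagen prolyl hydroxylase, reached 6.06-fold and 17.4-fold in the young EC-K4KO replicates with none in the old ones, and Kdm3a, a histone demethylase, had 6.39-fold in old WT Cre replicate 1 and 4.46-fold and 10.0-fold in the young EC-K4KO replicates. Vegfa had no promoter peak in any library. Of 10 tissue-restricted glycolytic isoforms, 0, 1, 2 and 6 had a promoter peak. On equal lists these counts were 0, 1, 2 and 0, and those of the further hypoxia targets 3, 4, 2 and 7, of the transport, pyruvate and control genes 2, 7, 2 and 5, and of the HIF partners 0, 2, 1 and 4. The equal-list counts are read beside 11.8%, 22.6%, 10.7% and 27.7% of all genes. Pfkfb2, Slc16a1, Cited2, P4ha1, Kdm3a and Vegfa, like all members named beyond Hk1, Pdk4, Ankrd37, Hif1a, Epas1, Arnt and Vhl, were singled out after their values were seen.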

How the data were processed

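According to the study's methods, trimmed reads were mapped to mm10 by the authors using Bowtie2, duplicates were dropped and peaks were called. The authors then built consensus peaks across replicates. The peaks used here are the separate lists of each library. Per the file headers, MACS 2.2.7.1, another version than the methods name, was used with a q cutoff of 0.01 and no control. The deposited tables give each peak's pileup (a coverage signal in fragments), its fold enrichment (a ratio to the background nearby) and −log10 values of the p-value and the q-value, none normalized between libraries. The narrow peak lists held the same peaks and were not used.

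Peaks were joined to GENCODE M21 basic protein-coding genes by an overlap of at least 1 bp with pandas 2.3.3, NumPy 2.4.6 and SciPy 1.17.1 under Python 3.11.15. Aldoa has more than 1 gene record, and the one with its standard identifier was used. Overlap counting was tested on simulated data. The members, lists and motifs were chosen with earlier results of these data known. Members named by rule were Hif1a, Epas1, Arnt and Vhl, those with a promoter peak in all 4 libraries, and those in both libraries of 1 group and neither of the other. The planned exact permutation of single members' percentiles could not be run, as no member had a promoter peak in all 4 libraries. Alternatives were equal lists, a minimum fold enrichment, a stricter q, other windows, other gene bodies, other numbers of genes of like length, and leaving out each library.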

Additional observations from a re-analysis of the deposited data

How the results depend on the processing

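Promoter counts fell under stricter calls in 3 libraries, as they did over all genes, and little in young EC-K4KO replicate 2. With q of at most 1e-05, promoter peaks were called at 5, 5, 2 and 25 members in library order (15.1%, 13.4%, 3.36% and 57.2% of all genes), and at 2 in both libraries of either group (old 3.77%, young 2.67%). Body peaks then stood at 3 in young EC-K4KO replicate 1 (11.3%), 7 in both old libraries (16.0%) and 3 in both young ones (10.6%). With a fold enrichment of at least 4, promoter peaks were at 3, 7, 3 and 24 members (11.7%, 21.4%, 6.56% and 59.2%) and at 2 in both old libraries (4.58%), and body peaks at 4 in young EC-K4KO replicate 1 (18.0%) and 4 in both young libraries (16.9%). Equal lists gave 3 (promoter, old WT Cre replicate 1), 14 (promoter, young EC-K4KO replicate 2), 2 and 2 (promoter, both old and both young), 11 (body, young EC-K4KO replicate 2) and 4 (body, both young), and turned the body difference to -7.81 points (-2.93 over all genes). The 5′-most start alone left 2 members in both old libraries (8.86%). Leaving out 1 library, the promoter difference ran from -21.9 to 46.9 points and the body difference from -17.2 to 29.7, negative in each case without young EC-K4KO replicate 2. Over all genes too, young EC-K4KO replicate 1 (10.7% promoter, 26.1% body) stood below the old means (25.0% and 40.1%). Young EC-K4KO replicate 2 (67.5% and 69.7%) stood above them. A single library in place of both gave 10 to 12 (promoter, old), 4 to 26 (promoter, young), 12 to 15 (body, old) and 8 to 23 (body, young). The causes of these shifts were not tested beyond the fewer peaks or libraries that each setting keeps. No paired analysis was possible because the sources used here do not say what the replicate numbers share and the counts come from no fitted test. Peak lists without reads limit depth to what the caller kept.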
